A study of Rattus norvegicus with 12 samples.

Results

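The kidneys compared here came from rats killed 1 week after L-NAME was stopped (W1) and from control rats (CTL), with 3 arrays in W1 and 3 in CTL out of 12 arrays in the series. The arrays were chosen by their labels alone. L-NAME is an analogue of arginine that blocks the nitric oxide synthases. W1 rats were male Sprague-Dawley rats that drank L-NAME at 15 mg/kg per day with NaCl at 6 g/L until the urinary protein excretion ratio exceeded 1 g/mmol of creatinine, and were killed 1 week after the drug was withdrawn. CTL rats were of the same sex and strain, had no L-NAME and were killed alongside to match in age. The ages, and whether CTL rats drank the salt, are not given in the sources used here. The study gives a wide range of weeks until L-NAME was removed, so W1 rats could differ in time on the drug. Its W1 and CTL groups held more rats than the 3 of each measured on arrays. The other 6 arrays were from rats killed at the end of L-NAME (W0) or 5 weeks after it (W5), and they served here only to place W1. Total RNA of a piece of whole kidney from each rat was measured on an Affymetrix Rat Gene array, and 18166 genes were measured, each by 1 probeset.

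Nitric oxide relaxes vessels through cyclic GMP, and rats deprived of it become hypertensive and develop sclerosis of small vessels and glomeruli. An injured tubule cell is known to lose part of its transport machinery, to express injury proteins on its surface and to re-enter the cell cycle while the epithelium is rebuilt. Around it, fibroblasts and pericytes lay down collagen, and macrophages clear debris and release signals that feed both repair and scarring.

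All values are log2 levels as deposited, so a difference of 1 is a 2-fold change, and a level is not comparable between genes. The array medians were 5.81 to 5.92 in W1 and 5.75 to 5.80 in CTL. On the first principal component of all 12 arrays (31.8% of the variance) the W1 arrays lay at 11.5, 12.3 and 2.60 and the CTL arrays at -23.0, -22.1 and -20.5. W1 replicate 3 was thus the W1 array nearest to CTL. On the second component (14.7%) W1 replicate 1 (-20.4) stood at one end, with W0 replicate 1 (31.7) at the other. Markers of the tubule segments and of podocytes were well expressed in both groups. Megalin (Lrp2) of the proximal tubule had log2 levels of 10.83 to 11.04 in W1 and 11.05 to 11.22 in CTL, and uromodulin (Umod) of the thick ascending limb 11.33 to 11.54 in W1 and 11.67 to 11.71 in CTL. The mean level over the markers of 2 tissues that border the kidney did not separate the groups. It was 4.48 to 4.67 in W1 and 4.53 to 4.76 in CTL for 7 markers of adrenal cortex, and 5.45 to 5.80 in W1 and 5.38 to 5.73 in CTL for 9 of urothelium, with no member called in either list (0 at an unadjusted p under 0.05 by limma).

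One week after withdrawal, many genes of the extracellular matrix, macrophages, complement, antigen presentation, tubular injury and the cell cycle were still higher in W1 kidneys than in CTL kidneys. Fewer genes were lower, and the largest falls included transporters and secreted proteins. In W1 against CTL 548 genes (3.02%) changed at an adjusted p under 0.05 (limma, Benjamini-Hochberg over all genes), of which 405 were higher (2.23%) and 143 lower (0.787%). In all 548 the 3 W1 values lay beyond the 3 CTL values, which was so for 22.1% of all genes. At an unadjusted p under 0.05 limma had 2905 of all 18166 genes, the background for the unadjusted counts given below. The change was at least 2-fold for 115 of the higher genes (0.633% of all genes tested) and 34 of the lower ones (0.187%), and the median size of a called change was 0.79. Tissue was taken whole, so more cells of a type and more RNA per cell cannot be told apart in any of these values.

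The number of arrays limits the precision, and the count fell whichever W1 or CTL array was left out. With 1 W1 array left out it was 249 (replicate 1), 165 (replicate 2) or 466 (replicate 3), and with 1 CTL array left out 188 (replicate 1), 231 (replicate 2) or 309 (replicate 3). It was 426 to 745 with an array of W0 or W5 left out, which enter the shared variance. In all 12 such fits 122 genes remained called (105 higher, 17 lower), and all 548 kept their sign. Such a fit also has fewer arrays to estimate from, so a lost call does not by itself single out 1 kidney. The share of calls that were higher also moved with the scale of the arrays. It was 73.9% as deposited, 55.1% with the arrays centred on their medians (296 higher, 241 lower) and 65.0% after repeated quantile normalization (355 higher, 191 lower), while the median change over all genes was 0.03, -0.06 and -0.01 on the 3 scales.

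Havcr1 rose most. Its product, kidney injury molecule-1, is a receptor that damaged proximal tubule cells display. Its log2 level was 8.91, 8.94 and 8.56 in W1, against 4.82, 5.08 and 5.89 in CTL. The groups were far apart, at 3.54 ± 0.23 (SE), an 11.6-fold rise (limma adjusted p = 8.43e-06). Spp1, which encodes the secreted phosphoprotein osteopontin, had 11.61, 11.80 and 11.53 in W1, against 9.20, 8.79 and 9.61 in CTL, a rise of 2.45 (adjusted p = 2.85e-05 by limma). Clu, which encodes the extracellular chaperone clusterin, had 11.27, 11.23 and 10.67 in W1, against 8.32, 8.96 and 9.07 in CTL, a rise of 2.27 (limma adjusted p = 4.8e-05). In both genes the lowest W1 kidney was replicate 3, and it lay above every CTL kidney, as in every gene called higher. An exact permutation test of any single gene over 3 against 3 arrays cannot go below p = 0.1, and gave 0.1 for Havcr1, Spp1 and Clu.

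**Figure D1:**
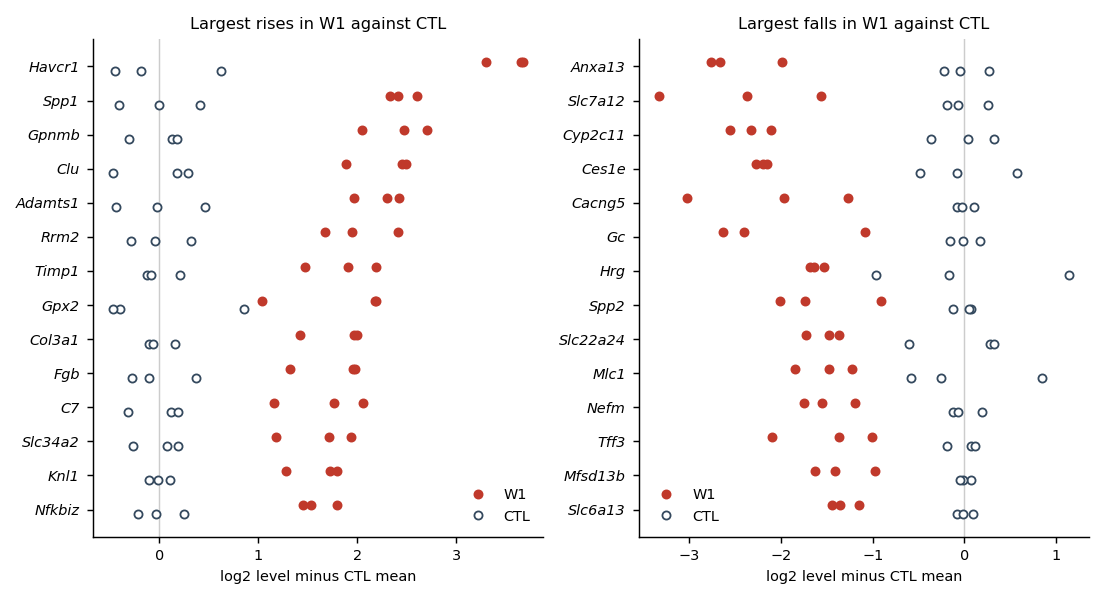
Log2 level minus the CTL mean (horizontal axis) of the 14 largest rises (left) and the 14 largest falls (right) among genes called in W1 against CTL, with a point per array, filled for W1 and open for CTL. The 3 W1 points of Havcr1 lie more than 3 log2 units above the CTL mean, and among the falls the W1 points of Slc7a12, Cacng5 and Gc are spread widely.

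Among the 14 largest rises, genes of injured cells and of macrophages stood beside enzymes and carriers of the epithelium. Gpnmb, a membrane glycoprotein of macrophages and injured cells, rose by 2.41 (7.39, 7.62 and 6.97 in W1, against 5.04, 4.61 and 5.1 in CTL, limma adjusted p = 0.000286). Slc34a2, a sodium-phosphate cotransporter of epithelia, rose by 1.61 (9.81, 10.03 and 9.27 in W1, against 8.18, 7.83 and 8.29 in CTL, adjusted p = 0.00179 by limma). Nfkbiz, a nuclear regulator of NF-kappa B target genes, rose by 1.59 (7.0, 7.26 and 6.91 in W1, against 5.43, 5.25 and 5.72 in CTL, limma adjusted p = 0.000955). None of these W1 values reached into the CTL range, which was so for every called gene. The others, from the largest, were Adamts1, Rrm2, Timp1, Gpx2, Col3a1, Fgb, C7 and Knl1, and apart from Gpx2 all 14 kept their call with any array left out. Gpx2, a glutathione peroxidase of epithelia, had 9.46, 9.45 and 8.32 in W1, against 6.88, 8.14 and 6.81 in CTL. W1 replicate 3 and CTL replicate 2 lay almost at the same level. Its rise of 1.80 (limma adjusted p = 0.0468) lost its call without W1 replicate 1 (0.175), W1 replicate 2 (0.172), CTL replicate 1 (0.165), CTL replicate 3 (0.148), W0 replicate 2 (0.0599) or W5 replicate 1 (0.0598).

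Markers of tubular injury rose in 12 of 27 cases and fell in 1, with a median change of 0.75 against 0.03 over all genes. In this and the lists that follow, the counts stand beside 2.23% of all genes called higher and 0.787% called lower. Vimentin (Vim), a filament protein of mesenchyme that injured tubules also make, was 10.42, 10.28 and 9.85 in W1, against 8.73, 9.05 and 8.90 in CTL, a rise of 1.29. Cd44, a hyaluronan receptor, rose by 0.95, the annexin Anxa2 by 1.17, the galectin Lgals3 by 1.06 and the TWEAK receptor Tnfrsf12a by 1.00. These 5 were named after their values were seen, and each kept its call in all 12 fits with an array left out, as did 9 of the 13 called members. The member that fell, Tff3, encodes trefoil factor 3, a peptide of mucosal repair. It had 10.23, 9.86 and 9.13 in W1, against 11.30, 11.35 and 11.04 in CTL, a change of -1.49 (limma adjusted p = 0.0182) that was lost without W1 replicate 2 (0.0636), W1 replicate 3 (0.0534), CTL replicate 1 (0.069) or CTL replicate 2 (0.0694). The keratins Krt7, Krt8, Krt18 and Krt19 had differences of 0.42 to 0.50 that did not pass the test, and Sox9, a transcription factor of tubule repair, had a difference of -0.03. The mean level of the list was 0.97, 0.91 and 0.51 above the CTL mean in the 3 W1 arrays, and -0.08 to 0.08 from it in the CTL arrays.

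**Figure D2:**
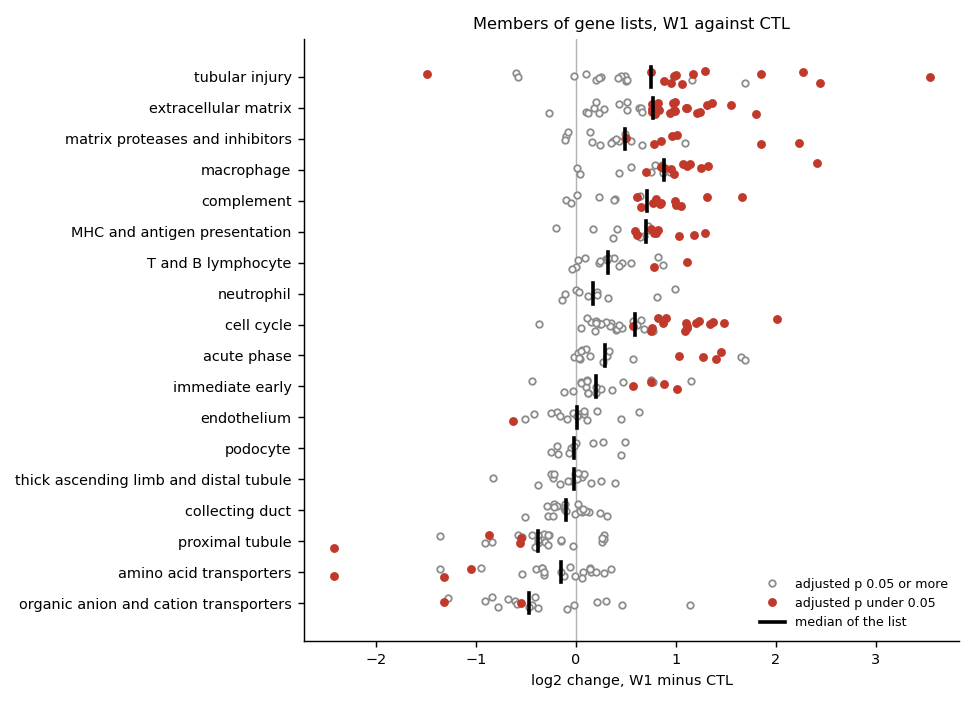
Log2 change from CTL to W1 (horizontal axis) of every measured member of 18 gene lists, one line each, filled where the limma adjusted p was under 0.05 and open otherwise, with a bar at the median of each list. The medians of tubular injury, matrix, macrophage, complement and antigen presentation lie between 0.70 and 0.88, while those of podocyte and of thick ascending limb lie at -0.02.

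Extracellular matrix was the list with most members changed. Of 33 genes 20 rose and none fell, with a median of 0.77, and 14 of the 20 kept their call in all 12 fits with an array left out. Col3a1, a chain of the fibrillar collagen of young scars, had 8.27, 8.24 and 7.69 in W1, against 6.17, 6.21 and 6.43 in CTL, a rise of 1.80 (limma adjusted p = 4.07e-05). Col1a1 had 7.27, 7.41 and 7.20 in W1, against 5.93, 6.04 and 5.96 in CTL (1.31, limma adjusted p = 4.07e-05), and its partner chain Col1a2 rose by 1.36. The W1 kidneys lay close together for Col1a1 and well clear of CTL. Fibronectin (Fn1), on which other matrix proteins assemble, had 9.71, 9.60 and 9.42 in W1, against 8.14, 7.78 and 8.14 in CTL (1.55, limma adjusted p = 4.34e-05). Decorin (Dcn), a small proteoglycan that binds collagen fibrils, had 9.14, 9.75 and 9.57 in W1, against 8.31, 8.21 and 8.20 in CTL (1.24, limma adjusted p = 0.00707).

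The rise was not limited to the fibrillar chains. The basement membrane chains Col4a1 (1.1) and Col4a2 (0.97), the microfibril protein Fbn1 (1.21), the beaded-filament chain Col6a3 (0.99) and the collagen cross-linking enzyme Loxl1 (0.99) also rose and kept their calls in all 12 fits. They were picked after their values were seen. Members that did not pass the test include Postn (0.66, limma adjusted p = 0.159), Lox (0.65, 0.0654) and elastin, Eln (0.18, 0.588). The mean level of the list lay 0.76, 0.84 and 0.70 above the CTL mean in the W1 arrays.

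Of 21 proteases of the matrix and their inhibitors 7 rose and none fell (median 0.49). Adamts1, a secreted metalloprotease that cleaves proteoglycans, had 9.87, 9.76 and 9.42 in W1, against 7.91, 7.43 and 7.01 in CTL, a rise of 2.23 (limma adjusted p = 4.4e-05). Timp1, an inhibitor of the matrix metalloproteinases, had 8.06, 8.34 and 7.62 in W1, against 6.03, 6.07 and 6.36 in CTL (1.86, limma adjusted p = 0.000224). Mmp14, a membrane-bound collagenase, rose by 1.01. Genes on both sides, degrading and inhibiting, were thus higher, and these 3 kept their calls in all 12 fits. The gelatinase Mmp9 (0.16) and the collagenase Mmp13 (-0.10) did not pass the test. The count of 7 was 3 without W1 replicate 2 and 4 without CTL replicate 1 or CTL replicate 2.

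Macrophage markers rose in 11 of 21 cases and fell in none, with a median of 0.88, the highest of the 51 lists examined. Cd68, a lysosomal glycoprotein of macrophages, had 7.66, 7.88 and 7.17 in W1, against 6.23, 6.31 and 6.21 in CTL, a rise of 1.32 (limma adjusted p = 0.00731). Mrc1, the mannose receptor of resident and repair macrophages, had 5.78, 5.95 and 6.09 in W1, against 4.95, 5.1 and 4.44 in CTL (1.11, limma adjusted p = 0.00344). The lipopolysaccharide receptor Cd14, picked after its value was seen, rose by 0.99, and with Gpnmb these genes kept their calls in all 12 fits. Adgre1, the gene of the F4/80 antigen, had 5.82, 6.22 and 5.95 in W1, against 6.03, 5.81 and 6.05 in CTL, so its groups overlapped. The count of 11 was 4 without W1 replicate 1 or W1 replicate 2, 5 without CTL replicate 1 or CTL replicate 2 and 7 without CTL replicate 3. The mean level of the list was 6.64 to 6.96 in W1 and 5.87 to 5.96 in CTL.

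Complement genes rose in 11 of 18 cases (median 0.71) and fell in none. C7, a component of the membrane attack complex, had 9.53, 10.43 and 10.14 in W1, against 8.06, 8.49 and 8.56 in CTL, a rise of 1.66 (limma adjusted p = 0.00187). C1qc, a chain of the recognition molecule C1q, had 8.01, 8.38 and 8.05 in W1, against 7.25, 7.17 and 7.02 in CTL (1.00, limma adjusted p = 0.00446). Properdin (Cfp), the stabiliser of the alternative pathway convertase, rose by 0.77 and was picked after its value was seen. Only these 3 kept their calls in all 12 fits. The central component C3 had 7.58, 8.21 and 6.85 in W1, against 6.13, 6.11 and 6.47 in CTL. Its rise of 1.31 (limma adjusted p = 0.0452) was lost without W1 replicate 1 (0.136), W1 replicate 2 (0.178), CTL replicate 1 (0.139), CTL replicate 2 (0.139), CTL replicate 3 (0.074) or any W5 array (0.0598 to 0.0656). Leaving out W1 replicate 2 or CTL replicate 2 brought the count of 11 to 3, CTL replicate 1 to 4, CTL replicate 3 to 5, W1 replicate 1 or 3 to 6 and W5 replicate 2 to 7.

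Genes of antigen presentation rose in 9 of 18 cases (median 0.70), but no call survived every omission of an array. RT1-Ba, a class II chain that shows peptides to helper T cells, had 7.51, 7.80 and 7.66 in W1, against 5.92, 6.49 and 6.68 in CTL. Its rise of 1.29 (limma adjusted p = 0.0155) was lost without W1 replicate 2 (0.0742) or CTL replicate 1 (0.0687). Psmb8, a subunit of the immunoproteasome, which cuts proteins into peptides for class I molecules, had 7.51, 7.60 and 7.02 in W1, against 6.38, 6.36 and 6.30 in CTL. Its rise of 1.03 (limma adjusted p = 0.0144) was lost without W1 replicate 1 (0.0576) or W1 replicate 2 (0.0741). The count of 9 was 1 without W1 replicate 2 or CTL replicate 1, 2 without CTL replicate 2 and 3 without W1 replicate 1. The list as a whole was higher in each W1 array, by 0.66, 0.75 and 0.59, against -0.10 to 0.17 in the CTL arrays.

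Other leukocyte lists had smaller medians, 0.32 for 17 T and B cell markers and 0.44 for 25 chemokines and receptors. At an unadjusted p under 0.05 limma had 9 and 13 genes in these lists, against 2905 of all 18166 genes. All 3 W1 values lay above all 3 CTL values in 10 and 11, against 13.7% of all genes, and below them in 0 and 1. The mean level of the T and B cell markers was 5.41 to 5.44 in W1 and 4.91 to 5.09 in CTL. Of 17 T and B cell markers Cd4 (1.11, limma adjusted p = 0.0319) and Il7r (0.78, 0.0473) rose. In the rat macrophages also carry Cd4, and the T cell receptor chains Cd3d (0.87, 0.127), Cd3g (0.82, 0.127) and Cd3e (0.55, 0.241) did not pass the test. Of 25 chemokines and receptors Ccr2 (1.37, 0.0211), the monocyte receptor of Ccl2, and Ccr1 (0.76, 0.0273) rose. Without W1 replicate 1, W1 replicate 2 or CTL replicate 1 none of these 4 genes was called (adjusted p = 0.0551 to 0.169). Without W1 replicate 3 or any W5 array Il7r was lost (0.0562 to 0.127), and without CTL replicate 2 or CTL replicate 3 3 of the 4 were (0.0505 to 0.125). The counts also moved upward. Without W0 replicate 1 the chemokines and receptors had 6 genes that were called higher, and without W0 replicate 3 they had 4, as did the T and B cell markers. No member of the 24 interferon response genes (median 0.37), the 10 neutrophil markers (0.16), the 7 mast cell markers (0.18) or the 5 erythroid markers (0.02) passed limma's test after adjustment. Beside the 3.02% of all genes called, the lack of calls is no result about these lists. At an unadjusted p under 0.05 there were 8 among the interferon response genes and 0 in the other 3 lists.

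**Figure D3:**
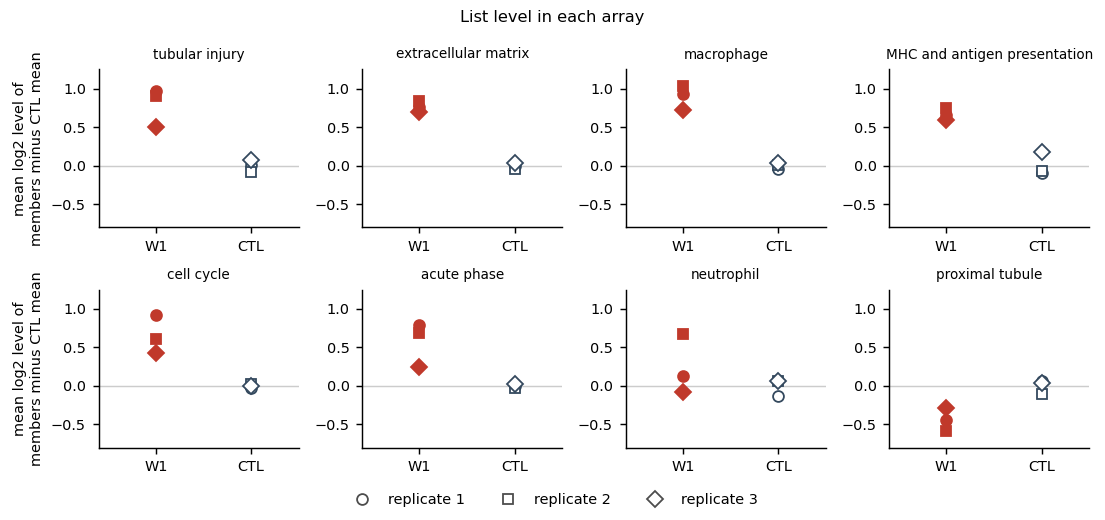
Mean log2 level of the members of 8 gene lists in each W1 and CTL array, minus the CTL mean (vertical axis), with a symbol per replicate number. The 3 W1 arrays lie above the 3 CTL arrays in the first 6 lists, below them for proximal tubule, and overlap with them for neutrophil markers, where W1 replicate 2 alone is at 0.68.

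Cell cycle genes rose in 16 of 38 cases and fell in none, with a median of 0.59. They cover DNA synthesis as well as mitosis. Rrm2, a subunit of the ribonucleotide reductase that makes DNA precursors, had 8.40, 7.94 and 7.67 in W1, against 5.71, 6.32 and 5.95 in CTL, a rise of 2.01 (limma adjusted p = 0.00902). Mcm6, part of the replicative helicase and picked after its value was seen, rose by 1.11. Top2a, which untangles DNA before division, had 7.42, 6.64 and 6.42 in W1, against 5.00, 5.61 and 5.42 in CTL (1.48, limma adjusted p = 0.00906). Mki67, the gene of the Ki-67 antigen of dividing cells, had 7.07, 6.51 and 6.18 in W1, against 5.04, 5.38 and 5.23 in CTL (1.37, limma adjusted p = 0.00817). In these genes W1 replicate 1 was the highest W1 kidney and replicate 3 the lowest, and none overlapped with CTL, as in every called gene. By the mean of the list too replicate 1 was the highest, at 0.92 above the CTL mean, against 0.61 in replicate 2 and 0.43 in replicate 3.

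Prc1, which bundles the microtubules of the dividing cell's midzone, had 6.40, 5.90 and 5.58 in W1, against 4.88, 4.59 and 4.39 in CTL (1.34, limma adjusted p = 0.00445). With Rrm2, Top2a, Mki67 and Mcm6 it kept its call in all 12 fits. Knl1, the scaffold of the outer kinetochore, is not in the list and rose with 5.52, 5.45 and 5.00 in W1, against 3.62, 3.71 and 3.84 in CTL (1.60, limma adjusted p = 4.66e-05). Cdkn1a, the inhibitor p21 that arrests the cycle, was also higher, with 7.12, 7.29 and 7.32 in W1, against 6.31, 6.03 and 6.43 in CTL. Its rise of 0.98 (limma adjusted p = 0.0454) was lost without any 1 of the W1, CTL or W5 arrays (0.0528 to 0.159). The proliferating cell nuclear antigen Pcna (0.25), the G1 cyclin Ccnd1 (-0.37) and the regulators E2f1 (0.20) and Foxm1 (0.40) did not pass the test. Leaving out W1 replicate 1 brought the count of 16 to 7, W1 replicate 2 or CTL replicate 2 to 8, CTL replicate 1 to 6 and CTL replicate 3 to 10.

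Promoters of genes of late cell cycle phases are known for pairing a cell cycle homology region (TTTGAA or TTCGAA) with CCAAT boxes. The 250 bases before the start were available from RefSeq (GRCr8) for 27 of the 38 members. On either strand 11 of the 27 (40.7%) held TTTGAA or TTCGAA, against 17.4% of 33469 promoters of that length, and 21 (77.8%) held CCAAT, against 34.0%. Both kinds stood in 9 of the 27 (33.3%), against 6.31% of all promoters. Among the 10 called members with a promoter 4 held both kinds (40.0%), and among the 17 that were not called 5 did (29.4%). The windows of 3 called members are shown because each held both kinds of motif, which capitals mark on either strand (CCAAT reads ATTGG and TTTGAA reads TTCAAA on the other strand, and TTCGAA reads the same on both). That of Prc1 is at chr1:143659231-143659480 on the plus strand, with 1 TTTGAA and 2 CCAAT. That of Mki67 is at chr1:199952594-199952843 on the minus strand, with 2 TTTGAA, of which 1 overlaps a CCAAT on the other strand, and 4 CCAAT. That of Top2a is at chr10:84473094-84473343 on the minus strand, with 1 TTTGAA, 1 TTCGAA and 4 CCAAT.
Prc1: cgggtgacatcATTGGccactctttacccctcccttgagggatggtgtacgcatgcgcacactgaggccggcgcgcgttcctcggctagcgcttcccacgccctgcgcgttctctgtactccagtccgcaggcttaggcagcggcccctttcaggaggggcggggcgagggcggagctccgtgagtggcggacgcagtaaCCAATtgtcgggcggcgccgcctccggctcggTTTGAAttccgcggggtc
Mki67: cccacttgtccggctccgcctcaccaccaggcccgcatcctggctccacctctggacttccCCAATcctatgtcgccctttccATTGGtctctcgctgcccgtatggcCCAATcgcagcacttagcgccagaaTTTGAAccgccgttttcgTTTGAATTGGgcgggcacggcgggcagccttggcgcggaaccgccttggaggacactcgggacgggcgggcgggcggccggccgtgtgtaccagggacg
Top2a: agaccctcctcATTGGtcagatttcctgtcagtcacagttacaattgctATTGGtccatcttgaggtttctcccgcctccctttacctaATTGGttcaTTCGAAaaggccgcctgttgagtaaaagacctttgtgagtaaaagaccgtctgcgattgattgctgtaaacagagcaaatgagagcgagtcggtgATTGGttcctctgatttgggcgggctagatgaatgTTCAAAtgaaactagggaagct

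Of 18 acute phase genes 4 rose (median 0.29), against 2.23% of all genes. Lbp, the lipopolysaccharide-binding protein, had 8.08, 8.32 and 7.71 in W1, against 6.52, 6.89 and 6.35 in CTL, a rise of 1.45 (limma adjusted p = 0.00383). The protease trap A2m rose by 1.41 (adjusted p = 0.00313 by limma) and ceruloplasmin (Cp), which carries copper, by 1.28 (limma adjusted p = 0.00111). These 3 kept their calls in all 12 fits. The fourth, the oncostatin M receptor Osmr (1.03, limma adjusted p = 0.041), lost its call without any 1 of the W1, CTL or W5 arrays (0.0532 to 0.152).

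Among 25 genes of fibrinogen and coagulation only Fgb rose, and Proc and Hrg fell. Over all genes 2.23% were called higher and 0.787% lower, so 1 of 25 higher is near the background. Fgb, the beta chain of fibrinogen, had 7.01, 6.99 and 6.35 in W1, against 4.76, 5.41 and 4.93 in CTL (1.75, limma adjusted p = 0.00111). Its partner chains Fga (0.35, 0.568) and Fgg (0.54, 0.202) did not pass the test. Proc, the precursor of the anticoagulant activated protein C, had 6.76, 7.01 and 6.92 in W1, against 7.69, 7.69 and 7.85 in CTL, a fall of 0.84 (limma adjusted p = 0.00253) that held in all 12 fits, as did the rise of Fgb.

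The 14 largest falls included transporters, secreted proteins and enzymes, and 10 of them lost their call in 1 or more fits with an array left out. They were those of Anxa13 (-2.47), Slc7a12 (-2.42), Cyp2c11 (-2.33), Ces1e (-2.21), Cacng5 (-2.09), Gc (-2.04), Hrg (-1.62), Spp2 (-1.56), Slc22a24 (-1.53), Mlc1 (-1.52), Nefm (-1.50), Tff3 (-1.49), Mfsd13b (-1.34) and Slc6a13 (-1.32). Only Ces1e, Spp2, Mfsd13b and Slc6a13 kept their calls in all 12 fits. The other 10 were all lost without W1 replicate 2 (limma adjusted p = 0.0636 to 0.145). Of these 10, leaving out W1 replicate 1 ended 3 calls (0.0903 to 0.125) and W1 replicate 3 ended 5 (0.0529 to 0.0885). Each CTL array ended 7 when it was left out, with adjusted p = 0.0566 to 0.115 for replicate 1, 0.0505 to 0.098 for replicate 2 and 0.0523 to 0.0821 for replicate 3. Hrg was also lost without W0 replicate 2 (0.0518) or W5 replicate 3 (0.0567).

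Ces1e, a carboxylesterase, had 5.32, 5.36 and 5.24 in W1, against 7.43, 7.02 and 8.08 in CTL, a 4.62-fold fall (limma adjusted p = 0.00179). The W1 kidneys were close together and the CTL kidneys spread. Spp2, a secreted phosphoprotein of the cystatin family, had 8.18, 8.44 and 9.27 in W1, against 10.06, 10.26 and 10.23 in CTL (adjusted p = 0.00298 by limma). Slc6a13, a transporter of GABA and taurine, had 7.02, 7.11 and 7.33 in W1, against 8.56, 8.39 and 8.46 in CTL (limma adjusted p = 0.00934). In both, as in every gene called lower, all W1 kidneys were lower than every CTL kidney. Mfsd13b, a member of a family of membrane carriers, had 4.79, 4.14 and 4.35 in W1, against 5.83, 5.74 and 5.71 in CTL (limma adjusted p = 0.00235). Slc39a8, an importer of zinc and manganese chosen after its value was seen, had 6.87, 6.70 and 6.77 in W1, against 7.85, 7.84 and 7.91 in CTL, a fall of 1.09 (limma adjusted p = 0.00143) that held in all 12 fits.

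Proximal tubule markers fell in 4 of 26 cases, against 0.787% of all genes, with a median of -0.38. Slc7a12, an amino acid transporter, had 9.03, 7.27 and 8.22 in W1, against 10.86, 10.52 and 10.41 in CTL (limma adjusted p = 0.0159). Slc22a6, which takes organic anions from the blood, had 10.07, 10.00 and 10.28 in W1, against 10.68, 10.68 and 10.65 in CTL, a fall of 0.55 (limma adjusted p = 0.0406). Pck1, a key enzyme of gluconeogenesis, fell by 0.87 and the water channel Aqp1 by 0.56. The phosphate transporter Slc34a1 (-0.03), the glucose transporter Slc5a2 (-0.15) and megalin, Lrp2 (-0.15), did not pass the test. All 4 calls were lost without W1 replicate 2 (adjusted p = 0.0557 to 0.176). Aqp1 was called in 3 of the 12 fits. The count of 4 was 1 without CTL replicate 1, 2 without W1 replicate 1, CTL replicate 2, CTL replicate 3 or W5 replicate 2, and 7 without W0 replicate 1. The mean level of the list was -0.44, -0.58 and -0.29 from the CTL mean in W1 replicates 1, 2 and 3.

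Carriers of amino acids and organic ions partly overlapped with these markers. Of 23 amino acid transporters 3 fell (median -0.15), against 0.787% of all genes, or 5 without W0 replicate 1. Besides Slc7a12 and Slc6a13 these included Slc1a4, a carrier of neutral amino acids, with 5.05, 5.72 and 5.22 in W1, against 6.68, 6.37 and 6.09 in CTL (-1.05, limma adjusted p = 0.00817, kept in all 12 fits). Of 19 organic anion and cation transporters 2 fell (median -0.47), against 0.787% of all genes, or 7 without W0 replicate 1 and 4 without W0 replicate 3. Slco4c1, which carries cardiac glycosides and thyroid hormone, had 6.96, 6.48 and 6.84 in W1, against 8.33, 7.73 and 8.16 in CTL. Its fall of 1.32 (limma adjusted p = 0.0114) was lost without W1 replicate 2 (0.0662) or CTL replicate 1 (0.0566), and that of Slc22a6 without W1 replicate 1 (0.121), W1 replicate 2 (0.155), any CTL array (0.091 to 0.123) or W5 replicate 2 (0.062).

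The share of all genes called was 3.02%, and beside it the counts in the next lists, of segments beyond the proximal tubule, podocytes and vessels, are no result about them. No gene was called among 16 of the thick ascending limb and distal tubule (median -0.02), 20 of the collecting duct (-0.10), 11 of podocytes (-0.02) or 18 of the VEGF and angiopoietin system (0.07). At an unadjusted p under 0.05 limma had 3, 1, 3 and 5 genes in these lists, against 2905 of all 18166 genes. With any 1 array left out each list had at most 1 call. Nephrin (Nphs1), the slit diaphragm protein of podocytes, had 6.82, 6.48 and 6.48 in W1, against 6.59, 6.76 and 6.59 in CTL, and the groups overlapped. Of 17 endothelial genes Ehd3 fell, with 6.67, 6.42 and 6.49 in W1, against 7.13, 6.93 and 7.40 in CTL (-0.63, limma adjusted p = 0.0225). That call was lost without W1 replicate 2 (0.1), W1 replicate 3 (0.0597), CTL replicate 1 (0.0731) or CTL replicate 3 (0.0821). Of 13 genes of mesangium, pericytes and smooth muscle Cspg4, the pericyte proteoglycan NG2, was called, with 7.53, 6.82 and 6.95 in W1, against 5.90, 5.74 and 6.43 in CTL (1.08, limma adjusted p = 0.0213), and lost its call without W1 replicate 1 (0.0918), CTL replicate 1 (0.0855) or CTL replicate 2 (0.0921). Leaving out W0 replicate 1 gave 3 higher genes in this list and W0 replicate 3 gave 2.

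L-NAME targets nitric oxide synthesis. Of 25 genes of nitric oxide synthesis and cyclic GMP, Gucy1a1, a subunit of the receptor for nitric oxide, rose. By limma 9 of the 25 had an unadjusted p under 0.05, against 2905 of all 18166 genes. With 3.02% of all genes called, 1 of 25 is near the background and no result about the pathway, and the same holds for 1 of the next 22. Gucy1a1 had 7.55, 8.12 and 8.06 in W1, against 6.58, 6.61 and 6.89 in CTL (1.22, limma adjusted p = 0.0175), with the call lost without W1 replicate 2 (0.086), CTL replicate 1 (0.0711) or CTL replicate 2 (0.0648). The synthases Nos1, Nos2 and Nos3 did not pass the test. Of 22 genes of the renin-angiotensin and other vasoactive systems only Ctsd, a lysosomal protease that can cleave angiotensinogen, rose, with 10.85, 10.89 and 10.62 in W1, against 9.94, 9.89 and 10.04 in CTL (0.83, limma adjusted p = 0.00313, kept in all 12 fits).

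Isthmin-1 (Ism1), a secreted protein known to inhibit vessel growth, on which the study centred, had 5.22, 5.12 and 5.55 in W1, against 6.12, 6.02 and 5.68 in CTL. The groups did not overlap, as was so for 22.1% of all genes, but the difference of -0.64 did not pass the test (limma adjusted p = 0.121). From its kidney arrays the study described Ism1 as expressed at W0, with a gradual return towards normal at W1 and W5. The W1 values given here were not above those of CTL. The study called its pattern more evident in isolated glomeruli than in total kidney. In isolated glomeruli, a different sample from the whole kidney measured here, Ism1 was significantly higher in W0 and W1 than in controls by the study's RT-qPCR. Its reported receptors Hspa5 (-0.19, adjusted p = 0.681 by limma) and Itgb5 (0.06, 0.866) did not pass it either, and the apoptosis-inducing factor Aifm1 had a difference of -0.25. Casp8, an initiator caspase, had 7.35, 7.03 and 6.92 in W1, against 6.41, 6.39 and 6.38 in CTL. Its rise of 0.71 (limma adjusted p = 0.023) was lost without W1 replicate 1 (0.0924), W1 replicate 2 (0.0726) or any CTL array (0.0667 to 0.0758). Of 11 other genes that the study picked on these samples, which is no independent evidence, Mapk4 (-1.1) and Mlh3 (-0.64) fell. Both calls were lost without W1 replicate 1, W1 replicate 2 or CTL replicate 1 (adjusted p = 0.0526 to 0.138), and that of Mlh3 also without W1 replicate 3, CTL replicate 2, CTL replicate 3, W0 replicate 2 or W5 replicate 2 (0.0606 to 0.16).

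The place of W1 among the other groups differed between genes. The following values share arrays, so they are set side by side. The 405 genes that were higher had a median of 0.72 in W0, 0.80 in W1 and 0.25 in W5, each against CTL. The 143 lower genes had -0.94 in W0, -0.78 in W1 and -0.31 in W5. These genes were chosen on the W1 values. Over all genes 1708 (9.4%) were called in W0 against CTL, 906 higher (4.99%) and 802 lower (4.41%), and limma called 0 in W5 against CTL (1333 at an unadjusted p under 0.05). By list, the median against CTL was 1.02 in W0, 0.75 in W1 and 0.18 in W5 for tubular injury. It was 0.58 in W0, 0.77 in W1 and 0.34 in W5 for matrix, and 0.61 in W0, 0.88 in W1 and 0.23 in W5 for macrophages. For the cell cycle it was 0.40 in W0, 0.59 in W1 and 0.07 in W5. The W0 and W1 arrays overlapped in the mean level of the last 2 lists. Above the CTL mean, that of macrophage markers was 0.4 to 1.2 in W0 and 0.7 to 1.0 in W1. That of cell cycle genes was 0.2 to 0.7 in W0 and 0.4 to 0.9 in W1. No member of either list was called in W1 against W0, where 0.528% of all genes were.

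Set against the mean of CTL, W0 and W5, W1 differed in 53 genes (0.292%), 47 higher (0.259%) and 6 lower (0.033%). Such a gene need not be highest or lowest at W1. Havcr1 was among the 53 (1.64, limma adjusted p = 0.00264) but was lower at W1 than at W0 (-1.63, limma adjusted p = 0.00699). All 3 W1 arrays lay above the other 9 in 0.963% of all genes and below them in 0.198%. Among the 8 largest of each direction with all 3 W1 arrays beyond the other 9, 3 kept their call with any array left out, Col3a1 (1.04, limma adjusted p = 0.00282), Fn1 (0.95, 0.00264) and Knl1 (1.18, 0.00118). Col1a1, which lay below these 8 in size (0.86, limma adjusted p = 0.00118), kept it too. It had 7.27, 7.41 and 7.20 in W1, against 5.93 to 6.04 in CTL, 6.48 to 6.68 in W0 and 6.74 to 6.84 in W5. Its W1 level was thus above those of every other kidney. Pck1 was the reverse, with 9.90, 9.39 and 9.53 in W1, against 10.24 to 10.61 in CTL, 10.72 to 10.98 in W0 and 9.91 to 10.18 in W5 (-0.87, limma adjusted p = 0.0108, and 0.0895 without W1 replicate 2). Leaving out W1 replicate 1 gave 9 genes in place of 53, W1 replicate 2 gave 15, an array of CTL or W5 gave 16 to 34, and W0 replicate 3 gave 193.

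**Figure D4:**
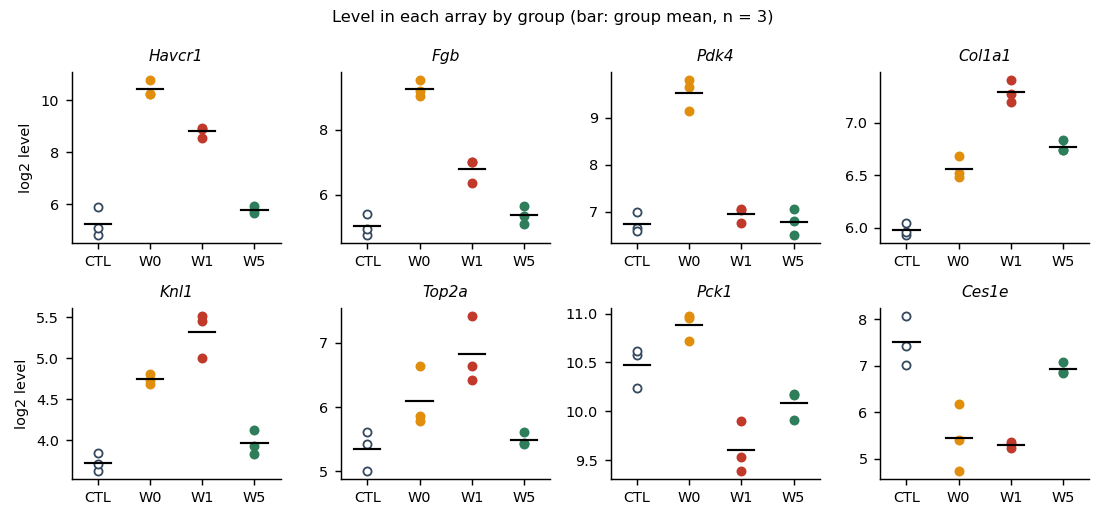
Log2 level (vertical axis) of 8 genes in each array of CTL, W0, W1 and W5, with a bar at the group mean (n = 3). Havcr1, Fgb and Pdk4 are highest at W0, Col1a1, Knl1 and Top2a at W1, and Pck1 and Ces1e are lowest at W1.

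Against W0 itself, 96 genes differed at W1 (0.528%), 41 higher (0.226%) and 55 lower (0.303%). Among those that kept their call with any array left out, Pdk4, Fgb, Angptl4, Igfbp1 and Fga had differences below -2. Pdk4 encodes the kinase that shuts glucose carbon out of mitochondria. It had 7.06, 7.05 and 6.75 in W1, against 9.81, 9.15 and 9.65 in W0 (-2.58, limma adjusted p = 1.49e-05). The W1 values were close to the 6.58 to 6.99 of CTL. Angptl4, a fasting-induced inhibitor of lipoprotein lipase (-2.46), the insulin-like growth factor binding protein Igfbp1 (-2.44) and the fibrinogen chain Fga (-2.19) were lower too. Of the other genes Col1a1 (0.73, limma adjusted p = 0.00779), the clock repressor Nr1d1 (1.24, 0.00123) and the profilin Pfn3 (1.19, 0.00779) were higher at W1 than at W0 in all 12 fits. In place of 96 there were 39, 57 and 22 genes when W1 replicate 1, 2 or 3 was left out, 63 when CTL replicate 1 was, and 169 when W0 replicate 3 was. Arrays centred on their medians gave 114, of which 35 were higher.

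At W5, 52 genes differed from W1 (0.286%), 4 higher (0.022%) and 48 lower (0.264%). Havcr1 differed by -3.01 at W5 (5.67, 5.79 and 5.92, limma adjusted p = 6.98e-05), Clu by -1.79 (9.41, 9.16 and 9.23, limma adjusted p = 0.00275) and Knl1 by -1.36 (4.12, 3.83 and 3.93, limma adjusted p = 0.00134). All W5 kidneys were below all W1 kidneys for these genes, and the calls held in all 12 fits. Spp1, Timp1 and Adamts1 differed by -1.49, -1.49 and -1.58, with the calls lost without W1 replicate 1 (0.0526, 0.0544 and 0.0526). Leaving out W1 replicate 1 gave 3 genes in place of 52 and W1 replicate 2 gave 10. An array of W5 left out gave 7 to 14, one of CTL 25 to 32, W0 replicate 3 81 and W0 replicate 1 152.

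The 3 W1 kidneys did not agree in every gene. Of the 405 higher genes 269 had W1 replicate 3 as the W1 kidney nearest to CTL, 79 had replicate 1 and 57 replicate 2. Among the 143 lower genes replicate 1 was nearest in 63, replicate 3 in 59 and replicate 2 in 21. The median SD over genes was 0.16 in W1 and 0.14 in CTL, and 22 genes in W1 and 16 in CTL had an SD over 1. The widest was Lcn2, whose product lipocalin-2 is secreted by injured tubules and by neutrophils, with 9.03, 9.67 and 4.99 in W1, against 6.32, 5.92 and 6.37 in CTL. Replicates 1 and 2 lay above every CTL kidney and replicate 3 below all of them. Its mean difference of 1.69 had a limma adjusted p of 0.491.

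Other genes of wide spread, chosen like Lcn2 after their values were seen, set single kidneys apart. The neutrophil calgranulins S100a8 and S100a9 were high in replicate 2 alone. S100a8 had 2.65, 6.31 and 2.48 in W1, against 2.91, 3.01 and 3.08 in CTL, and S100a9 had 4.38, 6.83 and 4.06 in W1, against 4.02, 4.36 and 3.92 in CTL. Serpina3n, an acute phase protease inhibitor, had 8.56, 6.50 and 5.64 in W1, against 4.78, 5.51 and 5.46 in CTL. Prothrombin (F2) had 8.44, 7.44 and 6.52 in W1, against 6.87, 7.34 and 7.22 in CTL. In both, replicate 1 was the highest of the W1 kidneys and replicate 3 the lowest.

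**Figure D5:**
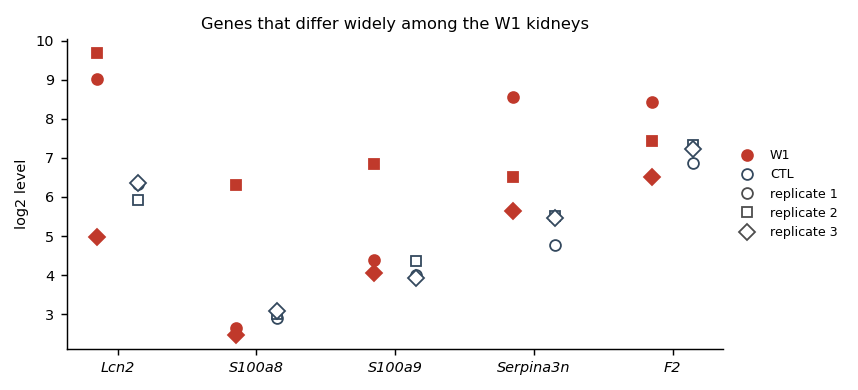
Log2 level (vertical axis) of 5 genes in each W1 and CTL array, filled for W1 and open for CTL, with a symbol per replicate number. Lcn2 is near 9 in W1 replicates 1 and 2 and 4.99 in replicate 3, and S100a8 and S100a9 are high in W1 replicate 2 alone.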

How the data were processed

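Total kidney RNA of 3 rats per group, as the labels state, was hybridised on Affymetrix Rat Gene arrays. The authors used RMA, and the deposited values, on the log2 scale, cover 20944 probesets and were used as they are. The software, scan dates and batches are not given in the sources used here. Only the 18510 probesets with 1 gene symbol were kept, a gene being represented by its probeset of highest mean (18166 genes). limma 3.58.1 in R 4.3.3 was fitted to the 12 arrays with all 4 groups and no trend of the variance, with Benjamini-Hochberg adjustment over all genes and a threshold of 0.05. The median standard error was 0.145, on 13.84 degrees of freedom in all. Each array was left out in turn, and scaling, probeset choice, filters, weights and the methods' t-test were varied. The script was tested on simulated data. Named genes included the 14 largest changes in each direction among called genes whose W1 and CTL values did not overlap, a condition that every called gene met. Also named were up to 5 called members of each of 51 lists, up to 8 genes in each direction of the other contrasts, and Ism1, Hspa5, Itgb5 and Havcr1. Others are said to be chosen after their values were seen. The lists were written from general knowledge, and members and lists were chosen with earlier results of these data known. Promoters were read from RefSeq's GRCr8 table. Python 3.11.15 with pandas 2.3.3 and matplotlib 3.10.9 prepared tables and figures.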

Additional observations from a re-analysis of the deposited data

Results flagged for a closer look

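For 14 genes of the text the change from CTL at W1 differed from the change from CTL at W0, tested as the difference between W1 and W0 with limma over all genes. Both changes share the CTL arrays, and each value below is the W1 change minus the W0 change on the log2 scale. The difference was negative for Pdk4 (-2.58), Fgb (-2.47), Angptl4 (-2.46), Igfbp1 (-2.44), Fga (-2.19), Fgg (-1.80), Havcr1 (-1.63), Cdkn1a (-1.26) and Tnfrsf12a (-1.03), whose W1 and W0 means both lay above the CTL mean, with W1 the nearer to it. Pck1 (-1.28) had a W1 mean below the CTL mean and a W0 mean above it. The difference was positive for Col1a1 (0.73), whose W1 mean lay above the W0 mean and both above CTL. It was also positive for Nr1d1 (1.24), Pfn3 (1.19) and Lrp2 (0.60), the megalin gene, whose W1 means lay nearer to CTL than their W0 means, all below CTL. The limma adjusted p was 1.49e-05 for Pdk4 and Angptl4 and at most 0.00779 for the other genes except Cdkn1a (0.0366) and Lrp2 (0.0355).

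The call of Cdkn1a was lost without any one of the 3 W1 arrays, CTL replicates 1 and 3 or W5 replicate 3, with adjusted p between 0.05 and 0.128. That of Lrp2 was lost without W1 replicate 1 or 3, any one of the 3 CTL arrays or W0 replicate 1 or 3, with adjusted p between 0.0504 and 0.163. The other 12 genes kept the call whichever of the 12 arrays was left out.

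Of 2434 probesets with no gene symbol or with several, which entered no comparison above, 34 differed between W1 and CTL at a limma adjusted p under 0.05, of which 23 were higher at W1 and 11 lower. Their genes are not named here.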

How the results depend on the processing

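The precision was limited by the number of arrays, 3 per group. Against the 548 genes called between W1 and CTL, 9 ways of processing or fitting gave between 455 and 645. Array weights gave 832 (538 higher, 294 lower), a change of at least 2-fold as well gave 149, and the methods' t-test gave 2480 unadjusted and 1 after Benjamini-Hochberg adjustment. With each array left out in turn, the counts ran between 165 and 745 for W1 against CTL, 22 and 169 for W1 against W0, 3 and 152 for W5 against W1, and 9 and 193 for W1 against the other 3 groups. Leaving out W1 replicate 1 and W0 replicate 1 together, which was chosen after seeing the data, gave 58 genes for W1 against W0 and 17 for W1 against the other groups. Centring the arrays gave 30 for W5 against W1 and 32 for W1 against the other groups, where the higher share was 78.1% instead of 88.7%. The cause of these moves was not tested.

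Calls of single genes between W1 and CTL were lost for Aqp1, Ctsc, Hrg and Ndufv3 with W1 and CTL fitted alone, and for C3, Cdkn1a, Il7r and Osmr with arrays centred or quantile-normalised again, where centring also lost Ctsc and Gpx2. Array weights lost C3 and Gpx2, and the mean of a gene's probesets lost Ndufv3. Apart from arrays left out, 1053 of 1166 values of single genes kept their direction and their side of the threshold, 104 lost the call, 6 gained it and 3 changed sign, and 886 of 1020 counts of list members stayed within 1.5 times. No gene of the text with a call changed sign. Of those without one, Itgb5 was -0.025 with arrays centred and Slc34a1 0.019 after repeated quantile normalisation. With single arrays left out Slc34a1 ran between -0.12 and 0.043, Slc5a2 between -0.46 and 0.26 and Sox9 between -0.089 and 0.10. Slc5a2 was 0.17 with array weights and 0.26 without W1 replicate 1 and W0 replicate 1.

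Deviations from the group means of arrays with the same replicate number correlated at 0 to 0.0929 for the 3 pairs of W1 with CTL and at -0.036 to 0.172 over all 18 pairs of the 4 groups. As not every pair was over 0.1, the numbers were not taken to pair the samples, although 5 of the 6 pairs of replicate 1 were over 0.1, as were W5 replicate 3 with W1 replicate 3 (0.148) and with CTL replicate 3 (0.172). Pairs of unlike number ran from -0.214 (W0 replicate 1 with W5 replicate 3) to 0.190 (W0 replicate 2 with W5 replicate 3). With the replicate number as a block, 563 genes were called between W1 and CTL, 89 between W1 and W0, 70 between W5 and W1, and 67 between W1 and the other groups. Of the genes of the text, Aqp1, Gpx2 and Hrg lost their call under the block.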

Other observations

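With 3.02% of all genes called in W1 against CTL, the counts of calls in the next lists of metabolism are no result about them. Most of their medians were below 0. None of 40 peroxisome genes (median -0.21, 7 with a positive difference), 27 genes of mitochondrial fatty acid oxidation (-0.22) and 21 of the citrate cycle (-0.14) passed limma's test after adjustment. By limma 12, 7 and 2 of them had an unadjusted p under 0.05, against 2905 of all 18166 genes. Without W0 replicate 1, 2 peroxisome genes were called lower. All 3 W1 values lay below all 3 CTL values in 15 of the 40 peroxisome genes and 12 of the 27 of fatty acid oxidation, against 8.34% of all genes. They lay above them in 1 and 0. For the citrate cycle 3 of 21 genes lay below and 1 above, and for the respiratory chain 8 of 52 lay below and 1 above. In the respiratory chain 1 of 52 genes fell (Ndufv3, -0.47, limma adjusted p = 0.0268, lost without W1 replicate 2 at 0.102, W1 replicate 3 at 0.087 or any CTL array at 0.0811 to 0.0821). The exception in direction was Ucp2, a mitochondrial carrier that uncouples respiration, among 17 PPAR and fasting targets (median 0.01). It had 9.67, 9.96 and 9.42 in W1, against 8.59, 8.46 and 8.64 in CTL, with no overlap, as in every called gene. It rose by 1.12 (limma adjusted p = 0.0011, kept in all 12 fits).

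Of 26 lysosomal genes 3 rose (median 0.24), against 2.23% of all genes. They were Ctsd, described above, Grn, which encodes progranulin (0.61), and the protease Ctsc (0.50). The calls of Grn and Ctsc were lost without W1 replicate 1, W1 replicate 2 or any CTL array (adjusted p = 0.0556 to 0.176), and that of Ctsc also without W1 replicate 3, W0 replicate 2 or any W5 array (0.0604 to 0.0714). Without W0 replicate 3 the list had 5 higher genes. With 3.02% of all genes called, 1 of the next 23 is near the background and no result about the pathway. Of 23 genes of TGF-beta and BMP signalling Tgfbi, a matrix protein that TGF-beta induces, was the one called, with 6.61, 6.36 and 6.30 in W1, against 7.22, 7.08 and 7.42 in CTL. It fell by 0.82 (limma adjusted p = 0.0157), lost without W1 replicate 2 (0.0735), CTL replicate 1 (0.055) or CTL replicate 3 (0.0584), and Tgfb1 had a difference of 0.60 (0.12). Without W0 replicate 1 this list had 2 genes higher and 2 lower. Cdh11, a cadherin of mesenchymal cells, had 7.30, 7.44 and 7.07 in W1, against 6.07, 6.01 and 6.38 in CTL, and rose by 1.12 (limma adjusted p = 0.00817, kept in all 12 fits). None of 28 heat shock and unfolded protein response genes (median 0.01) and 16 circadian genes (0.00) passed limma's test in W1 against CTL. By limma 4 and 2 of them had an unadjusted p under 0.05, against 2905 of all 18166 genes. Beside the 3.02% of all genes called, the lack of calls is no result about either list.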
